A study of Mus musculus with 32 samples.

Results

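The samples described here are the 8 primary sphere cultures of TH-MYCN mice, out of 32 arrays in all, divided by the microarray slide on which they were hybridised. The slide of an array was read from the scan barcode in its file header, and each of 2 slides held 4 primary cultures. The slide with the higher level of Sparc was named slide A, so the direction of Sparc is a naming convention and not a result. Slide A held primary cultures 1 to 4 and slide B held primary cultures 5 to 8. All 8 primary cultures came from mice aged 3 weeks, were hemizygous for the TH-MYCN transgene (TH-MYCN+/-, strain 129+Ter/SvJcl) and were grown as spheres for 8 days. The transgene places human MYCN under a tyrosine hydroxylase promoter, so it is active in catecholamine-producing cells. Whether the mouse Mycn probe also binds transgene RNA was not tested. The same 2 slides also held 4 sphere cultures passaged 5 times, of the same genotype and age, each on 1 array of slide A and 1 array of slide B. These passage arrays measure how far a slide moves a probe when the culture is the same. Other slides carried the superior mesenteric ganglion, or SMG, from 8 TH-MYCN mice, also aged 3 weeks. The SMG is an abdominal ganglion of the sympathetic nervous system, and its level is given for orientation. In all, the series covers 28 cultures or ganglia.

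Neuroblastoma arises from sympathoadrenal cells of the neural crest, the embryonic cell population that also gives rise to Schwann cells and to the satellite glia that wrap ganglion neurons. Tumour cells of this kind can be grown in suspension as spheres, and the ganglia from which they arise also hold glia, fibroblasts, blood vessels and macrophages. Sparc is a secreted protein that binds collagen, Apoe carries lipids and is abundant in glia, Nid1 joins laminin to collagen IV in basement membranes, and Fabp7 is a fatty acid binding protein of immature glia. Levels below are log2 spot signals minus the array's 75th percentile, so 0 is the 75th percentile of that array and 1 unit is a 2-fold step.

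The arrays of both slides overlapped in brightness. The 75th percentile of signal lay between 462 and 545 on slide A and between 495 and 563 on slide B (exact permutation test, two-sided, p = 0.229). Spots well above background made up 57.0% to 58.7% on slide A and 57.0% to 59.7% on slide B (exact p = 0.686). The spike-in RNA added to each sample, taken relative to the 75th percentile, was 0.39 higher on slide A (mean -0.45 ± 0.19 on slide A and -0.84 ± 0.22 on slide B, SD, n = 4 each), and the groups did not overlap. Its exact p of 0.0286 is the smallest that 4 against 4 can give, and the adjusted p over the 4 array measures was 0.0571. In passage spheres the same measure differed by -0.04 between slides. The part of these spike-in levels in the results below was not tested. Across genes, primary arrays of slide A correlated with each other at 0.994 to 0.996, those of slide B at 0.990 to 0.995, and arrays of slide A with arrays of slide B at 0.975 to 0.987. The 2 arrays of a passage culture, 1 on each slide, correlated at 0.994 to 0.996, while different passage cultures on 1 slide correlated at 0.978 to 0.989. Precision is limited by the number of arrays, and nothing in the labels says whether the primary cultures of a slide came from separate mice, so p-values measure the spread between these cultures. In bulk RNA, fewer cells of a type and less RNA per cell cannot be told apart.

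All 4 marker genes were far higher in the primary spheres of slide A. Sparc stood at 4.70, 5.48, 6.17 and 5.11 in primary spheres 1 to 4 of slide A, against 1.08, 0.57, 0.11 and 0.52 in primary spheres 5 to 8 of slide B. The lowest slide A culture was thus above the highest slide B culture by more than the range within either slide, and the fitted difference was 4.80 (SE 0.31), given without a test because Sparc named the slides. Nid1 was measured at 0.70, 1.43, 2.29 and 0.95 on slide A, against -3.01, -2.79, -3.82 and -3.46 on slide B, a difference of 4.62 (SE 0.35, adjusted p = 0.000134, limma). Apoe was at 2.27, 3.04, 3.78 and 2.86 on slide A, against 0.38, 0.46, 0.01 and 0.66 on slide B, a difference of 2.61 (SE 0.29, adjusted p = 0.000674). Fabp7 was at 1.23, 2.01, 2.21 and 1.89 on slide A, against -1.42, -1.75, -2.18 and -0.70 on slide B, a difference of 3.35 (SE 0.32, adjusted p = 0.000312). Nid1, Apoe and Fabp7 did not overlap between slides, and neither did Sparc, which named them. Nid1, Apoe and Fabp7 were chosen as markers with earlier results of these data known, so their p-values are not independent support. Over all tested genes 22.3% did not overlap, 1847 with slide A above and 1305 with slide A below. All 4 markers were above background on all 8 arrays, and primary culture 3 was the highest of slide A for each. A second probe for Sparc gave 5.04.

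In TH-MYCN SMG all 4 markers were higher than in either set of spheres: 7.74 ± 0.27 for Sparc, 3.79 ± 0.37 for Nid1, 7.53 ± 0.21 for Apoe and 4.81 ± 0.20 for Fabp7 (SD, n = 8). The slide B cultures therefore lay between the slide A cultures and the passage spheres for Sparc, Nid1 and Fabp7, while for Apoe slide B and the passage arrays overlapped. On the passage arrays Sparc was at -3.61 to -1.94 on slide A and -4.46 to -2.06 on slide B, and Nid1 and Fabp7 were each well above background on 0 of the 8 arrays. These SMG levels come from other slides and were not tested against the spheres.

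**Figure D1:**
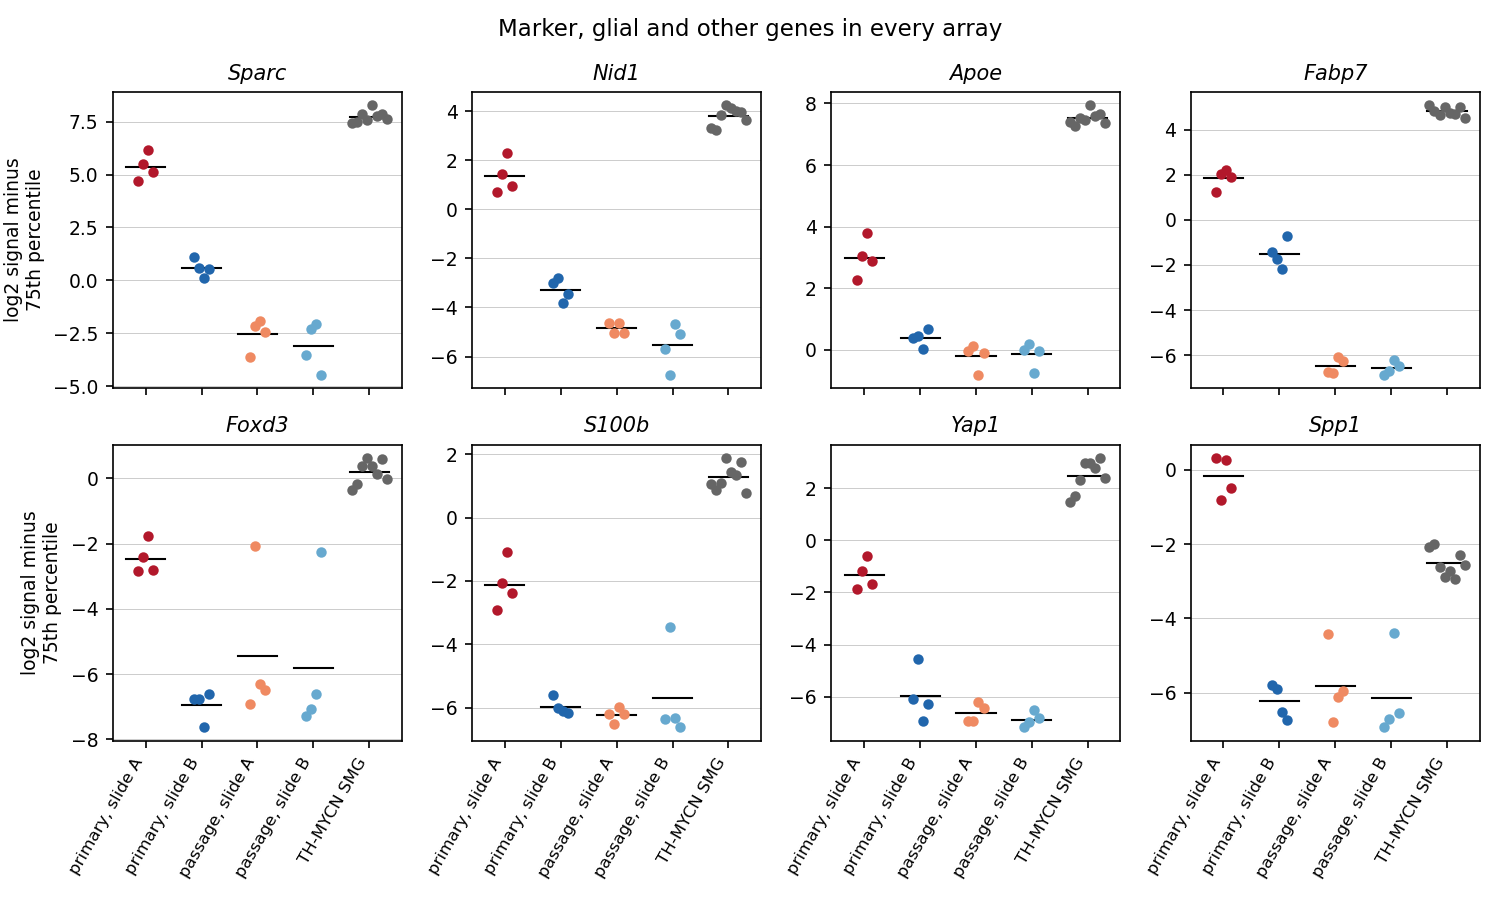
Levels (log2 signal minus the array's 75th percentile, vertical axes) of 8 genes in every array, with 1 point per array and a bar at the group mean. For Sparc the 4 primary arrays of slide A sit between 4.70 and 6.17 and those of slide B between 0.11 and 1.08, while the passage arrays of both slides lie below -1.

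The promoters of 2 of these markers are shown because SOX factors, such as the glial Sox10, and TEAD factors, the DNA-binding partners of Yap1, are treated below. The sequences run 5′ to 3′ on the gene's strand, from 250 bases before to 50 bases after the start that RefSeq lists first (assembly GRCm38.p6). Capitals mark a match to 1 of 3 short motifs, searched on both strands: SOX-type ACAAAG, TEAD-type GGAATG and AP-1-type TGANTCA, which share no letters of a site in the stretches printed. The Apoe window is chr7:19699139-19699438 on the minus strand and holds a SOX-type match on the opposite strand at position -54 from the start. The Nid1 window is chr13:13437352-13437651 on the plus strand and holds a TEAD-type match at position -165.
Apoe: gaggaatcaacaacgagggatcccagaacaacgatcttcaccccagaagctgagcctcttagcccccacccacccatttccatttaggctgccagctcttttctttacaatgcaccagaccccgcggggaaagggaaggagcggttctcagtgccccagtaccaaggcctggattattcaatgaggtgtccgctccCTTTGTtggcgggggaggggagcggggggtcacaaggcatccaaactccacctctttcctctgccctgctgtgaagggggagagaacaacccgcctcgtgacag
Nid1: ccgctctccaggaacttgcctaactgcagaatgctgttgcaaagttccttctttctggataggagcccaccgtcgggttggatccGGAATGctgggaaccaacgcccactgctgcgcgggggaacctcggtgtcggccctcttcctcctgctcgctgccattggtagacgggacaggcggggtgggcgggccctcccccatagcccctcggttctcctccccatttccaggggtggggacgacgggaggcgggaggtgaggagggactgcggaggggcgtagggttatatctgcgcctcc

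Over all 14135 tested genes, 1196 (8.46%) were higher and 624 (4.41%) were lower in the primary spheres of slide A at an adjusted p under 0.05. The directions were unequal in size: 430 of the genes that rose did so by at least 2-fold, against 12 of those that fell. The call held in all 8 fits that leave out 1 culture for 885 genes, 680 of them higher and 205 lower. The count of called genes was 992 without primary culture 2, 1152 without primary culture 7 and 966 when all groups shared 1 estimate of the spread, against 1820 with all 8 cultures fitted alone. The 430 count was 376 to 438 when 1 culture was left out, and 160 with a normexp background correction, which compresses differences of dim probes. Of the 430 genes, 215 were above background on all 4 slide B arrays and 108 on none. For the 108, and for any named gene of that kind below, the fold is a lower bound.

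The 12 genes with the largest rises, among those called in every fit without 1 culture, included secreted factors, matrix proteins and their receptors. They were ranked by fitted difference. For those above background on no slide B array that difference rests on background signals, so their place in the ranking is uncertain. Spp1, which encodes the secreted phosphoprotein osteopontin, was at 0.31, -0.81, 0.27 and -0.50 on slide A, against -5.79, -5.91, -6.52 and -6.73 on slide B, where no array was above background. It was at least 41.0-fold higher on slide A (adjusted p = 4.03e-05). Adamts4, a protease that cuts proteoglycans, was at -2.23, -2.05, -1.07 and -2.16 on slide A, against -7.68, -7.62, -7.56 and -7.12 on slide B, and was at least 13.4-fold higher (adjusted p = 2.60e-05). The slide A values of both genes lay above every slide B value, and both entered the test through slide A alone, so that the bound and not the p is the measure. Crym, a thyroid hormone binding protein, was at least 15.0-fold higher, and Gdnf, a growth factor that signals through Ret, at least 10.6-fold. Afap1l2, an adaptor protein, was at least 9.22-fold higher and Thbs2, a matrix glycoprotein, at least 6.14-fold. Itga7, a laminin receptor subunit, was at 0.48, 1.17, 2.10 and 0.76 on slide A, against -3.09, -3.15, -4.22 and -3.92 on slide B, a difference of 4.72 (SE 0.38, adjusted p = 0.000143). Emp1, a membrane protein of the Pmp22 family, was at -0.06, 0.54, 1.29 and 0.32 on slide A, against -3.98, -3.81, -4.73 and -3.89 on slide B, a difference of 4.63 (SE 0.30, adjusted p = 7.25e-05). Col18a1, the source of endostatin, differed by 4.63 and Yap1 by 4.65; with Sparc and Nid1 these complete the 12.

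Glial genes rose in part. Of 16 tested genes of the 20 in a Schwann and satellite glia list, 11 were higher and 0 were lower on slide A, where 8.46% of all tested genes were higher. The median of the 16 was 1.11, against 0.02 over all tested genes. Of the 16, 4 were above background on no slide B array and entered the test through slide A alone. Among the 12 above background on all 8 arrays, 7 were higher, and without a filter on dim probes 10 of the 20 were. Leaving out 1 culture gave 10 to 12. Foxd3, a transcription factor of neural crest and glial precursors, was at -2.85, -2.41, -1.76 and -2.81 on slide A, against -6.76, -6.75, -7.63 and -6.61 on slide B, and was at least 8.93-fold higher (adjusted p = 7.25e-05). S100b, a calcium-binding protein of Schwann cells, was at -2.93, -2.06, -1.09 and -2.38 on slide A, against -5.60, -6.01, -6.10 and -6.18 on slide B, and was at least 10.4-fold higher (adjusted p = 0.000243). Both genes were above background on all 4 arrays of slide A and on 0 of slide B, and are among the 4 that entered the test through slide A alone. Cdh19, a cadherin of Schwann cell precursors, was at least 4.67-fold higher and Gjc3, a gap junction protein of myelinating glia, at least 3.72-fold higher. Sox10, the transcription factor that defines the glial lineage, was at -0.69 to 0.69 on slide A and -2.35 to -2.06 on slide B, a difference of 2.02 (adjusted p = 0.00161). Postn, a matrix protein of Schwann cells, differed by 2.35, Ngfr, the low-affinity nerve growth factor receptor, by 1.30, and the myelin protein gene Pmp22 by 0.58.

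The other 5 tested glial genes were not called, and they include Mbp, Mag and Gfra3. Mbp, a myelin gene, was at 3.42 to 3.75 on slide A and 3.38 to 3.81 on slide B, and Mag, also of myelin, at -3.28 to -2.94 on slide A and -3.57 to -2.80 on slide B, so that the slides overlapped for both. Gfra3, a receptor for artemin, was at 3.76 to 4.90 on slide A and 4.61 to 5.38 on slide B (difference -0.64, adjusted p = 0.152). Erbb3, the neuregulin receptor of Schwann cells, and Mal, a myelin lipid raft protein, were above background on no primary array and were not tested. In TH-MYCN SMG all 20 genes of the list were above background on at least 6 of 8 arrays. The mean level over the list was -1.68, -1.22, -0.69 and -1.38 on slide A, against -2.68, -2.79, -2.67 and -2.62 on slide B, and 1.21 to 2.14 in SMG. The slide A cultures were all above the slide B cultures and all below the SMG samples.

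Matrix genes had the highest median of the lists, beside the 4 markers themselves. Of 22 tested genes in a list for basement membrane and matrix proteins, 15 were higher and 0 lower on slide A, with a median of 2.45. The list does not hold every such gene: the collagen IV chain Col4a3, outside it, was called lower on slide A (-0.84) and is given among the falls. Over all tested genes 8.46% were higher. The 15 include Sparc and Nid1. Of the 18 above background on all 8 arrays, 11 were higher, with a median of 2.30. Serpinh1, the collagen chaperone, was at -0.47, 0.20, 0.91 and -0.17 on slide A, against -3.57, -3.57, -4.12 and -4.16 on slide B, a difference of 3.97 (SE 0.29, adjusted p = 0.000113). Col4a1 and Col4a2, the chains of the network collagen of basement membranes, differed by 3.22 and 2.59. Lama4, a laminin chain, differed by 3.61, Nid2 by 2.63, the heparan sulphate proteoglycan gene Hspg2 by 2.32, and the metalloproteinase inhibitors Timp1 and Timp3 by 2.58 and 2.28. Col5a2, a fibrillar collagen chain, was at least 7.97-fold higher. Col18a1 was at 2.37, 2.81, 3.48 and 2.33 on slide A, against -1.17, -1.42, -2.43 and -2.50 on slide B. These ranges did not overlap. The laminin chains Lama1, Lama2, Lamb1, Lamb2 and Lamc1, with the proteoglycan Bgn and the fibrillin Fbn1, made up the 7 that were not called. Lamc1 stood at 2.71 to 3.00 on slide A and 2.36 to 3.01 on slide B, and Lama1 at 0.19 to 0.73 on slide A and 0.32 to 0.85 on slide B.

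Fibroblast genes split between collagens and the genes that define fibroblasts. Of 9 tested genes of 14, 5 were higher and 0 lower, where 8.46% of all tested genes were higher, with a median of 0.74. Of the 7 above background on all 8 arrays 3 were higher, with a median of 0.44, and with a normexp background correction 3 of the 9 were, with a median of 0.33. Col1a2 was at 1.94, 2.10, 2.95 and 2.08 on slide A, against -0.83, -0.69, -1.12 and -1.45 on slide B, a difference of 3.29 (SE 0.24, adjusted p = 0.000119). Col3a1 and Col1a1, which with Col1a2 form fibrillar collagens, differed by 3.43 and 3.09, with 2 of the 4 slide B arrays above background for each. Igf1, a growth factor, differed by 0.98. Gsn, which severs actin, differed by 0.74 (adjusted p = 0.0240), and its call was lost without primary culture 2, 3, 6 or 8 (adjusted p up to 0.0649). Pdgfra and Dpt were above background on no primary array, Dcn on 1 array of each slide, Lum on 2 arrays of slide A and 1 of slide B, and Mgp on 3 arrays of slide A and 0 of slide B. All 14 were above background in all 8 SMG samples. The list's mean level was -3.37 to -2.30 on slide A and -4.38 to -3.65 on slide B.

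Genes of mesenchymal-type neuroblastoma cells, a cell state with little of the adrenergic programme, were called in part. Of 9 tested of 17 listed, 7 were higher and 0 lower, where 8.46% of all tested genes were higher, with a median of 1.96. That median rests on members dim on slide B: of the 5 above background on all 8 arrays 3 were higher, with a median of 0.36, and the median of the 9 was 0.49 with a normexp background correction. Yap1, a transcriptional coactivator held back by the Hippo kinases, was at -1.87, -1.16, -0.59 and -1.67 on slide A, against -6.11, -4.57, -6.93 and -6.30 on slide B, where 1 array was above background. Its difference was 4.65 (SE 0.48, adjusted p = 0.000473). Axl, a receptor tyrosine kinase, was at -1.88, -1.35, -0.26 and -1.62 on slide A, against -5.12, -5.15, -4.96 and -5.26 on slide B, a difference of 3.85 (SE 0.30, adjusted p = 0.000140). The slides did not overlap for either gene. Prrx1, a homeobox factor of mesenchyme, was at least 2.74-fold higher, Cd44, a hyaluronan receptor, differed by 1.96, Fosl2 of the AP-1 family by 0.76 and the intermediate filament gene Vim by 0.36. Wwtr1, the paralogue of Yap1 also called Taz, differed by 2.12 (adjusted p = 0.0309), but primary culture 7 stood at -3.48, close to the slide A range of -3.31 to -2.30, and the call was lost without primary culture 2, 3, 4, 5, 6 or 8 (adjusted p up to 0.0805). Tbx18, Meox1, Meox2, Snai2, Maml2 and Egr3 were above background on no primary array.

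Target genes of YAP and TEAD factors moved less evenly. Of 5 tested, 3 were higher, where 8.46% of all tested genes were, namely Axl, the Hippo kinase Lats2 (at least 3.07-fold) and Ccn1, a matricellular protein (0.54, adjusted p = 0.0391). Lats2 entered the test through slide A alone, and of the 3 members above background on all 8 arrays 1 was higher. The call of Ccn1 was lost without primary culture 2, 3, 4, 5, 7 or 8 (adjusted p up to 0.106). Amotl2 and the partner Tead1 were measured well and overlapped between slides, with Tead1 at 2.27 to 2.61 on slide A and 2.23 to 2.69 on slide B. Ccn2 and Ankrd1 were above background on no primary array.

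The promoters of Yap1, Axl and Emp1 are shown with the same conventions, the first 2 for the factor and its target and the last for its paired AP-1-type matches. The Yap1 window is chr9:8004547-8004846 (minus strand, TEAD-type match at -141), the Axl window chr7:25788684-25788983 (minus strand, TEAD-type match at -233), and the Emp1 window chr6:135362681-135362980 (plus strand, AP-1-type matches at -145 and -25).
Yap1: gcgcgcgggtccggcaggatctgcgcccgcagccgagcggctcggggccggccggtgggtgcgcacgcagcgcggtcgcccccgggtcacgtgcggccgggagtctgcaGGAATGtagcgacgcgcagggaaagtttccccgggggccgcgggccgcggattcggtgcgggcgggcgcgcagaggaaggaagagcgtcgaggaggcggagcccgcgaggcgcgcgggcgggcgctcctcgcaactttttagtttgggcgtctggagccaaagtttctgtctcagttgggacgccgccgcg
Axl: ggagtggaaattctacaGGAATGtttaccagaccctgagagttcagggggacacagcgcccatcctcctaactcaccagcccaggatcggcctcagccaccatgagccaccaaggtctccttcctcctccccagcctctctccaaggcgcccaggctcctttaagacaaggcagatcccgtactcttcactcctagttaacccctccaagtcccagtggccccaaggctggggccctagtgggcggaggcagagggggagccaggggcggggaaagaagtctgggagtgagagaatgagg
Emp1: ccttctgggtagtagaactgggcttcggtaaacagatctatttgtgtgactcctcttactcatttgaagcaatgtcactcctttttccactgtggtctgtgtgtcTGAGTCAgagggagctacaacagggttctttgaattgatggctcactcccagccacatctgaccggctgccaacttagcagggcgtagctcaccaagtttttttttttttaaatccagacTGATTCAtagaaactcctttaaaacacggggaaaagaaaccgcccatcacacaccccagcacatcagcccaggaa

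These promoters were chosen after their matches were seen. RefSeq gave a window for 318 of the 430 genes at least 2-fold higher on slide A. A TEAD-type match was in 16.4% of the 318, in 12.1% of the windows of 11256 tested genes and in 14.6% of all 27018 windows. A SOX-type match was in 17.0%, 13.9% and 18.7% of the same 3 sets, and an AP-1-type match in 10.1%, 4.94% and 7.94%. Among the 42 named genes at least 2-fold higher, 30 had a window. Of these, 7 held a TEAD-type match (Axl, Col3a1, Lats2, Nid1, Prrx1, Wwtr1 and Yap1), 5 a SOX-type match (Abca1, Apod, Apoe, Col3a1 and Spp1) and 1 an AP-1-type match (Emp1). A match says only that these letters lie in the window.

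Among lipid carriers the difference was carried by 3 of 12 tested genes, where 8.46% of all tested genes were higher. Apod, a lipocalin abundant in glia, was at 2.18, 2.44, 3.18 and 2.49 on slide A, against -0.91, -1.08, -1.67 and -0.66 on slide B, a difference of 3.65 (SE 0.25, adjusted p = 0.000104). Abca1, which exports cholesterol to Apoe, was at least 9.63-fold higher on slide A and entered the test through slide A alone. Of the 11 members above background on all 8 arrays 2 were higher, among them the marker Apoe, which is described above. The other 9 were not called and included Clu, Lpl and Fabp5, the last of which stood at 7.99 to 8.19 on slide A and 7.89 to 8.11 on slide B. None of 15 cholesterol synthesis genes was called in either direction.

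Neural crest, Notch and immediate early genes each had a few called members, where 8.46% of all tested genes were higher. Of 11 tested neural crest and progenitor genes, 4 were higher and 0 lower, and of the 10 above background on all 8 arrays 3 were higher. Nes, the progenitor intermediate filament nestin, was at -0.35, 0.01, 0.98 and -0.27 on slide A, against -2.85, -3.07, -2.96 and -3.04 on slide B, a difference of 3.07 (SE 0.26, adjusted p = 0.000197). Tfap2a, a neural crest transcription factor, was at least 4.08-fold higher, Id4 differed by 0.89 and Zeb2 by 0.55, while Sox5 (6.30 to 6.49 on slide A and 6.16 to 6.39 on slide B) and Tfap2b (6.18 to 6.52 on slide A and 5.84 to 6.37 on slide B) overlapped. Of 11 tested Notch pathway genes, 3 were higher: the target gene Heyl by 4.03, Nrarp, a feedback inhibitor, by at least 2.70-fold, and the ligand Jag1 by 0.88. Of the 9 above background on all 8 arrays 1 was higher. The ligand Dll1 was lower by -0.68 (adjusted p = 0.0310), a call lost without primary culture 2, 3, 4, 5, 7 or 8 (adjusted p up to 0.0886). Of 10 tested immediate early genes 4 were higher, and of the 9 above background on all 8 arrays 3 were. Egr1 was at 1.20, 0.87, 0.93 and 0.80 on slide A, against 0.07, -0.10, -0.07 and -0.14 on slide B, a difference of 1.01 (SE 0.10, adjusted p = 0.000349). Fos differed by 0.92 and Egr2, which also marks myelinating Schwann cells, was at least 5.75-fold higher. Tfap2a, Nrarp and Egr2 entered the test through slide A alone. Atf3 differed by 0.57 (adjusted p = 0.0327), a call lost without primary culture 2, 3, 5, 7 or 8 (adjusted p up to 0.0956). Jun, Dusp1, Ier2 and Btg2 were not called and overlapped between slides.

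Markers of other cell types that a ganglion holds gave few calls, and several genes that define these cells were at background on both slides. Over all tested genes 8.46% were higher on slide A. Of 7 tested endothelial genes only Flt1, a VEGF receptor, was called, at -1.62, -1.19, -1.05 and -1.50 on slide A, against -4.04, -4.01, -4.11 and -4.46 on slide B (difference 2.81, SE 0.15, adjusted p = 5.23e-05), while the endothelial cadherin Cdh5, Tie1 and Cldn5 were above background on no primary array. The endothelial count was 4 of 7 without primary culture 1, 1 without any other culture, and 3 with a normexp background correction or with a trended and robust variance. Of 3 tested macrophage genes only Csf1r was called (0.57, adjusted p = 0.00965), and C1qa, C1qc, Mrc1, Lyz2 and Ctss were above background on no primary array. A second Csf1r probe gave 0.27 (adjusted p = 0.100). The macrophage list's mean level was -6.02 to -5.63 on slide A, -6.17 to -5.62 on slide B and 1.26 to 2.10 in SMG. Of 5 tested pericyte and smooth muscle genes only Cspg4, a proteoglycan also found on glial precursors, was called (2.32, adjusted p = 0.00267), and Myh11, Des and Kcnj8 were above background on no primary array. Of 4 tested lymphocyte genes Cd3e differed by 0.74 (adjusted p = 0.0105) and Nkg7 by 0.32 (adjusted p = 0.0453), and Nkg7 kept its call without primary culture 1 only (adjusted p up to 0.114 without any other). Hba-a2, a haemoglobin chain of red cells, was above background on all 8 arrays and was not called (1.03, adjusted p = 0.461). The part of these cell types in the slide difference was not tested.

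**Figure D2:**
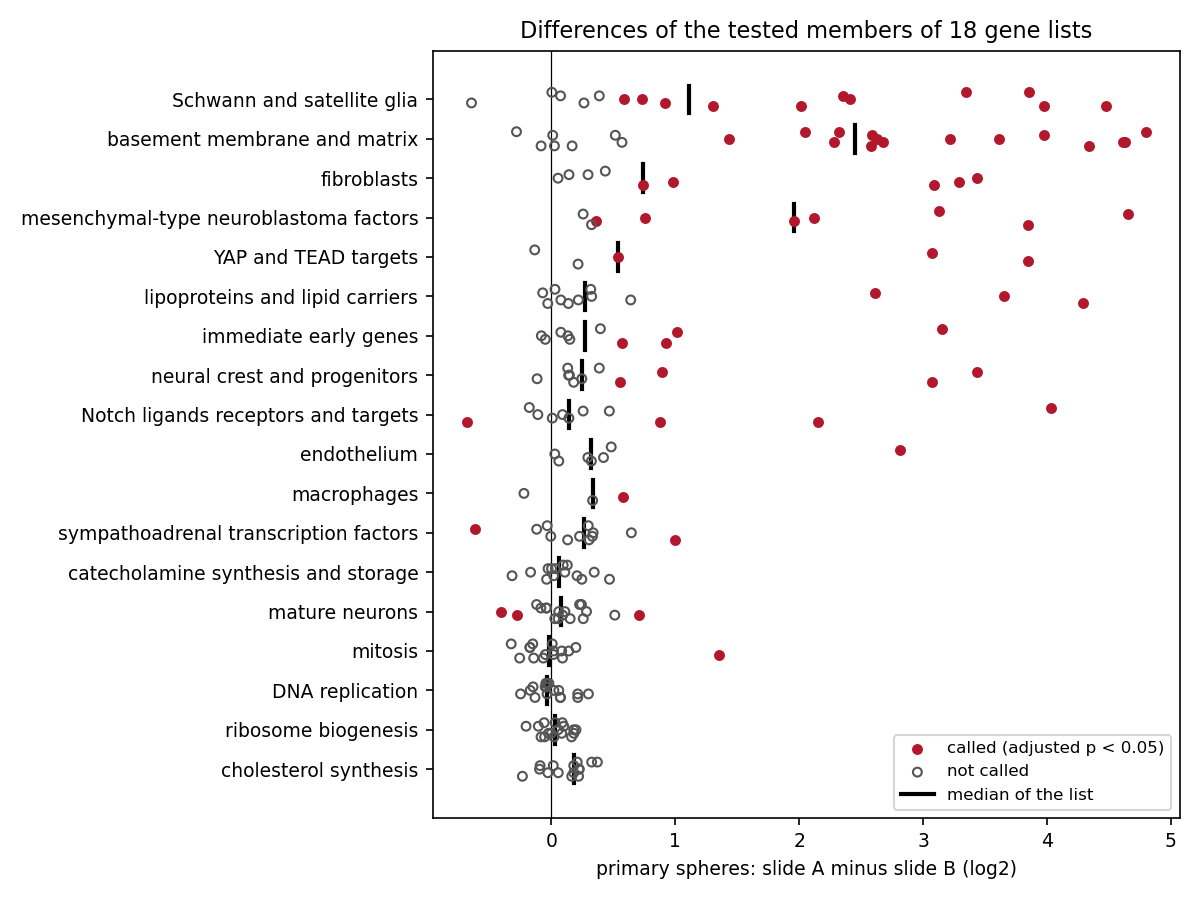
Fitted difference between the primary spheres of slide A and slide B (log2, horizontal axis) for each tested member of the gene lists named on the vertical axis. Filled points were called, open points were not, and the black bar is the median of the list. Matrix genes have a median of 2.45 and glia of 1.11, while mitosis, DNA replication and ribosome biogenesis lie around 0.

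The main neuroblast genes overlapped between the slides. Mycn, the oncogene that the transgene carries in its human form, was at 3.71, 3.62, 3.49 and 3.63 on slide A, against 3.78, 3.80, 3.59 and 3.32 on slide B, a difference of -0.01 (SE 0.11, adjusted p = 0.970). Th, which makes the first enzyme of catecholamine synthesis, was at 7.98, 7.66, 8.02 and 7.66 on slide A, against 7.92, 7.69, 7.90 and 7.69 on slide B (difference 0.03, SE 0.11, adjusted p = 0.874). The slides overlapped for both genes, and likewise for the receptor kinases Alk (-0.08, SE 0.16) and Ret (0.26, SE 0.15) and for Mycl (0.07, SE 0.11).

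Within the panel of 8 neuroblastoma genes 2 were called, both higher, where 8.46% of all tested genes were higher. Myc was at -4.62, -4.14, -3.54 and -4.20 on slide A, against -5.25, -5.89, -5.78 and -5.28 on slide B, where 1 array was above background (difference 1.42, SE 0.24, adjusted p = 0.00595). Lin28b, which blocks let-7 maturation, was at 2.70, 2.65, 2.74 and 2.55 on slide A, against 2.35, 2.48, 2.37 and 2.33 on slide B (difference 0.28, SE 0.07, adjusted p = 0.0343). The call of Lin28b was lost without primary culture 1, 2, 3, 5, 7 or 8 (adjusted p up to 0.0946).

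Of 14 catecholamine synthesis and storage genes none was called in the primary spheres, with differences from -0.32 to 0.47. Of 12 sympathoadrenal transcription factors 1 was higher and 1 lower, where 8.46% of all tested genes were higher and 4.41% lower. The lower one was Hand1, which was at 1.36, 1.05, 0.94 and 0.92 on slide A, against 1.69, 1.59, 1.77 and 1.69 on slide B, a difference of -0.62 (SE 0.11, adjusted p = 0.00701). The slides did not overlap for Hand1. Of 18 tested mature neuron genes Rab3c was higher (0.71, adjusted p = 0.00299), and Uchl1 (-0.41, adjusted p = 0.0220) and Map2 (-0.27, adjusted p = 0.0358) were lower. Other probes of Rab3c gave 0.64 (adjusted p = 0.00316, limma over probes) and -0.26 (adjusted p = 0.130, not called). The call of Uchl1 was lost without primary culture 2, 3, 4, 5 or 6 (adjusted p up to 0.0589) and that of Map2 without primary culture 2, 3, 4, 5, 7 or 8 (adjusted p up to 0.109).

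Proliferation genes gave almost no calls, where 8.46% of all tested genes were higher and 4.41% lower. Of 16 mitosis genes 1 was called, Aurkb, which is taken up below, and of 17 DNA replication genes and 17 ribosome biogenesis genes 0 were, with medians of -0.03 and 0.03. Each of several other lists had few calls. In p53 targets Bax was higher by 0.33 (adjusted p = 0.0117), in MHC class I the peptide transporter Tap2 was at least 4.27-fold higher and B2m differed by 0.76 (adjusted p = 0.0163), and in the adrenal cortex list Cyp21a1 differed by 0.45. Hk2 of glycolysis differed by 0.74 and Phgdh of serine synthesis by 0.38, calls lost in 5 of 8 fits without 1 culture each (adjusted p up to 0.0917 for Hk2 without primary culture 1, 3, 4, 6 or 7, and up to 0.0718 for Phgdh without 1, 3, 4, 5 or 7). Calr, a chaperone, was lower by -0.31, a call lost without primary culture 2, 4 or 7 (adjusted p up to 0.0705). Of 6 interferon response genes 0 were called.

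**Figure D3:**
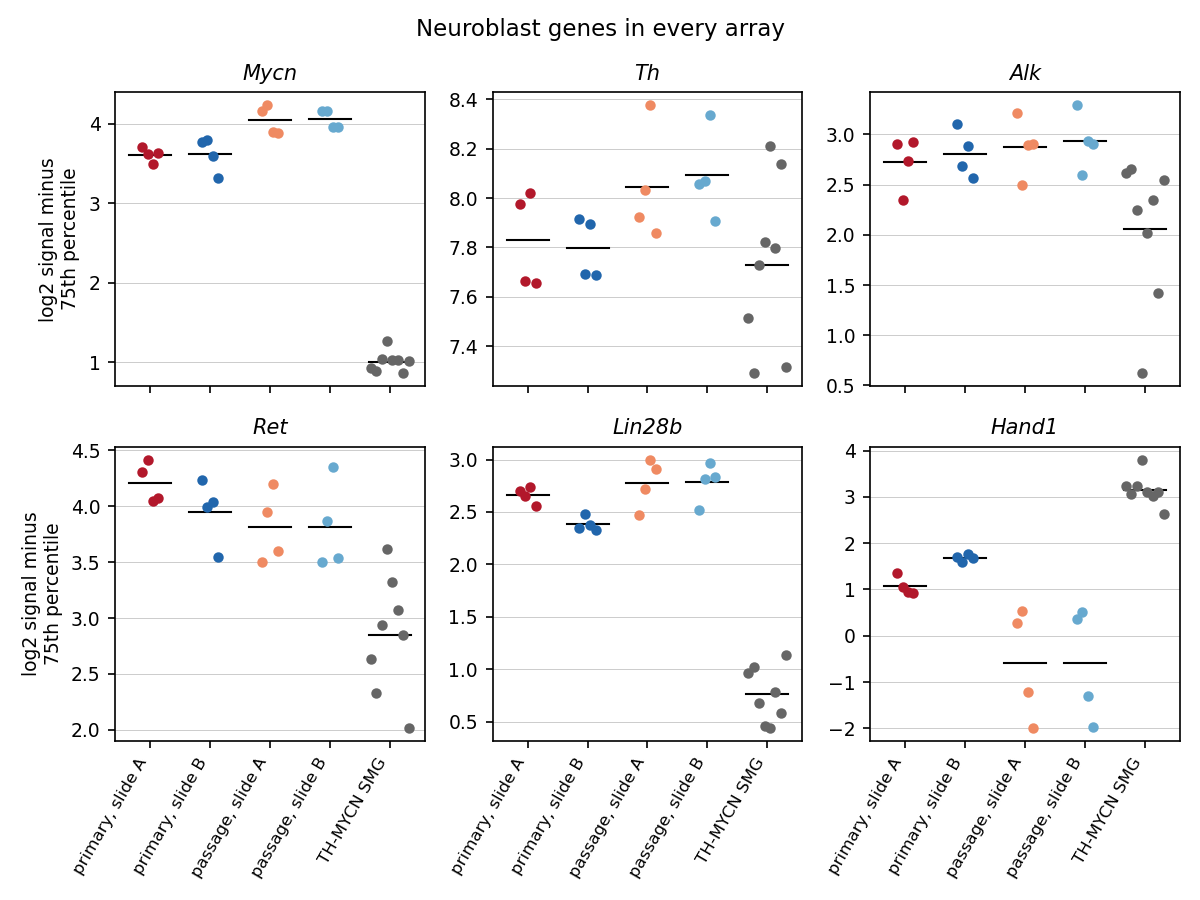
Levels (log2 signal minus the array's 75th percentile, vertical axes) of 6 neuroblast genes in every array, with 1 point per array and a bar at the group mean. Mycn, Th, Alk and Ret overlap between the primary spheres of slide A and slide B, and Lin28b and Hand1 do not.

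The 12 genes with the largest falls, among genes with more than a provisional symbol that were called in every fit without 1 culture, were in none of the lists used here. Hoxd3, a homeobox gene of axial identity, was at -1.42, -1.03, -1.65 and -2.28 on slide A, against -0.21, -0.16, 0.03 and 0.09 on slide B, a difference of -1.53 (SE 0.23, adjusted p = 0.00369). Hoxd9 of the same cluster was at -0.92, -0.63, -1.13 and -1.76 on slide A, against -0.20, 0.39, 0.21 and 0.52 on slide B, a difference of -1.34 (SE 0.24, adjusted p = 0.00931). Primary culture 4 was the lowest for both genes and no slide A culture reached a slide B culture. Sidt1, a membrane protein linked to RNA transport, was at -1.06, -1.43, -1.31 and -0.99 on slide A, against -0.19, 0.14, -0.08 and 0.06 on slide B, a difference of -1.18 (SE 0.12, adjusted p = 0.000447). The X-linked Xlr4b (-1.28), Ltk, a receptor kinase related to Alk (-1.02), Ush1c (-1.01), the axon guidance receptor Robo2 (-0.90), Kctd4 (-0.88), Odf4 (-0.87) and Fermt3, an integrin activator of blood cells (-0.87), followed. Col4a3, a collagen IV chain (-0.84), was above background on all 4 slide B arrays and on 0 of slide A, so slide B was at least 1.26-fold higher. Taok2 differed by -0.81, but its other probe gave 0.38 (adjusted p = 0.0171). Of the 12 called falls of at least 2-fold, 6 are not among these, and they are named here after their values were seen. 2810459M11Rik, a provisional symbol, differed by -1.29 and was called in all 8 fits without 1 culture. Anp32a (-1.86) was called in 1 of the 8, Papln (-1.60) in 6, Ppp1r17 (-1.27) in 2, Klk1b22 (-1.18) in 2 and Hoxd8 (-1.14) in 5.

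The passage arrays measure the slides with the cultures held the same. On the same genes the spread of slide differences (SD over genes) was 0.52 in primary spheres and 0.22 in passage spheres, and the median size was 0.15 in primary spheres and 0.07 in passage spheres. In the passage spheres 539 genes (3.81%) were higher and 383 (2.71%) lower on slide A, and 53 of these 922 differed by at least 2-fold. With the culture as a fixed block, which pairs the 2 arrays of each culture, 7 were called, all higher. The fit given first treats the culture as a random block, with an estimated correlation of 0.81 between the 2 arrays of a culture. In both stages and in the same direction 297 genes were called, 247 higher and 50 lower, which is 16.3% of the primary calls and 32.2% of the passage calls, and 1 gene was called in opposite directions.

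A part of the large rises was shared with the passage arrays. Of the 430 genes, 50 were also called higher on slide A in passage spheres, where 3.81% of all tested genes were called higher. The share was thus larger among the 430 than over all tested genes. Of the 430, 375 had a passage difference smaller than 50% of their primary one. The 430 were chosen for a large primary difference, so this count follows in part from that choice. Over all tested genes the median size of a passage difference was 0.07. The median difference of the 430 was 2.04 in primary spheres and 0.15 in passage spheres. On the passage arrays 147 of the 430 were above background on none, so that a slide difference could not be seen there. A fit over the 16 primary and passage arrays tested whether the slide difference itself differed between stages: it was larger in the direction of slide A in primary spheres for 174 genes (1.23%) and in the direction of slide B for 11 (0.0778%). This fit takes the 2 arrays of a passage culture as independent; with each culture as a random block, chosen after the data were seen, 347 genes were larger in the direction of slide A and 104 in that of slide B. Of the 430 genes, 163 were among the 174. Of the 174, 103 were above background on no passage array, where the test repeats the primary difference, and 50 were above background on all 8.

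Among the markers this test can be read for Apoe, which was above background on all 8 passage arrays, and gave 2.67 (SE 0.42, adjusted p = 0.00309). Apoe was itself chosen with earlier results of these data known. For Nid1 and Fabp7, at background on all passage arrays, no slide difference could be measured there. Sparc, which named the slides and was above background on 7 of the 8 passage arrays, differed by 0.55 in passage spheres. Apoe was at -0.05, 0.11, -0.82 and -0.11 on slide A in passage cultures 1 to 4, against 0.00, 0.18, -0.77 and -0.04 for the same cultures on slide B. Each passage culture thus gave nearly the same Apoe level on both slides (difference -0.06, adjusted p = 0.761), where the primary cultures of the 2 slides differed by 2.61. By list, 10 of 22 matrix genes, 6 of 16 glial genes and 3 of 12 lipid carriers were called in this test, larger in the direction of slide A. So were 2 of 9 mesenchymal-type factors, 2 of 5 YAP and TEAD targets and 2 of 10 immediate early genes. Over all tested genes 1.23% were called in that direction. Of each other list, the markers aside, 1 or 0 genes were called, and 0 genes of any list were called in the other direction. Above background on all 8 passage arrays were 2 of these 10 matrix genes, 3 of the 6 glial genes and 2 of the 3 lipid carriers. The same held for 0 of the 2 mesenchymal-type factors, 0 of the 2 YAP and TEAD targets and 1 of the 2 immediate early genes.

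Other genes were called in the same direction in both stages. Aurkb, a mitotic kinase, was at -1.50, -1.63, -2.06 and -1.98 on slide A, against -2.93, -3.02, -3.13 and -3.51 on slide B in primary spheres (difference 1.36, SE 0.16, adjusted p = 0.00114). In passage spheres it averaged -1.50 ± 0.37 on slide A and -2.88 ± 0.20 for the same cultures on slide B (SD, n = 4 each), with every slide A array above every slide B array (difference 1.38, adjusted p = 0.00366), and the difference between stages was -0.02. Cyp21a1 differed by 0.45 in primary and 0.46 in passage spheres, Csf1r by 0.57 and 0.44, Gjc3 by 2.41 and 1.15, and Rab3c by 0.71 and 0.28. The last pair of genes had the larger difference in primary spheres, by 1.27 for Gjc3 (adjusted p = 0.431) and by 0.44 for Rab3c (adjusted p = 0.152), and Gjc3 was above background on no passage array. Each of the 5 was called in both stages. For all but Gjc3, whose passage signals were at background, the passage arrays of the same cultures thus differed between slides too. With the culture as a fixed block the passage calls were lost, at adjusted p = 0.0827 for Aurkb, 0.0948 for Cyp21a1, 0.102 for Csf1r, 0.146 for Gjc3 and 0.120 for Rab3c. Calr was called lower in both stages, by -0.31 in primary and -0.16 in passage spheres. Its passage call (adjusted p = 0.0225) was also lost with the culture as a fixed block (adjusted p = 0.106). Of the 50 genes at least 2-fold higher in primary and also higher in passage spheres, 10 were olfactory or vomeronasal receptor genes, 10 had a larger difference in passage spheres, and for 5 the difference between stages was called. Olfr48 differed by 2.36 in primary and 2.30 in passage spheres, Olfr103 by 1.99 and 1.99, and Lyar, a nucleolar protein gene, by 1.38 and 1.44.

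**Figure D4:**
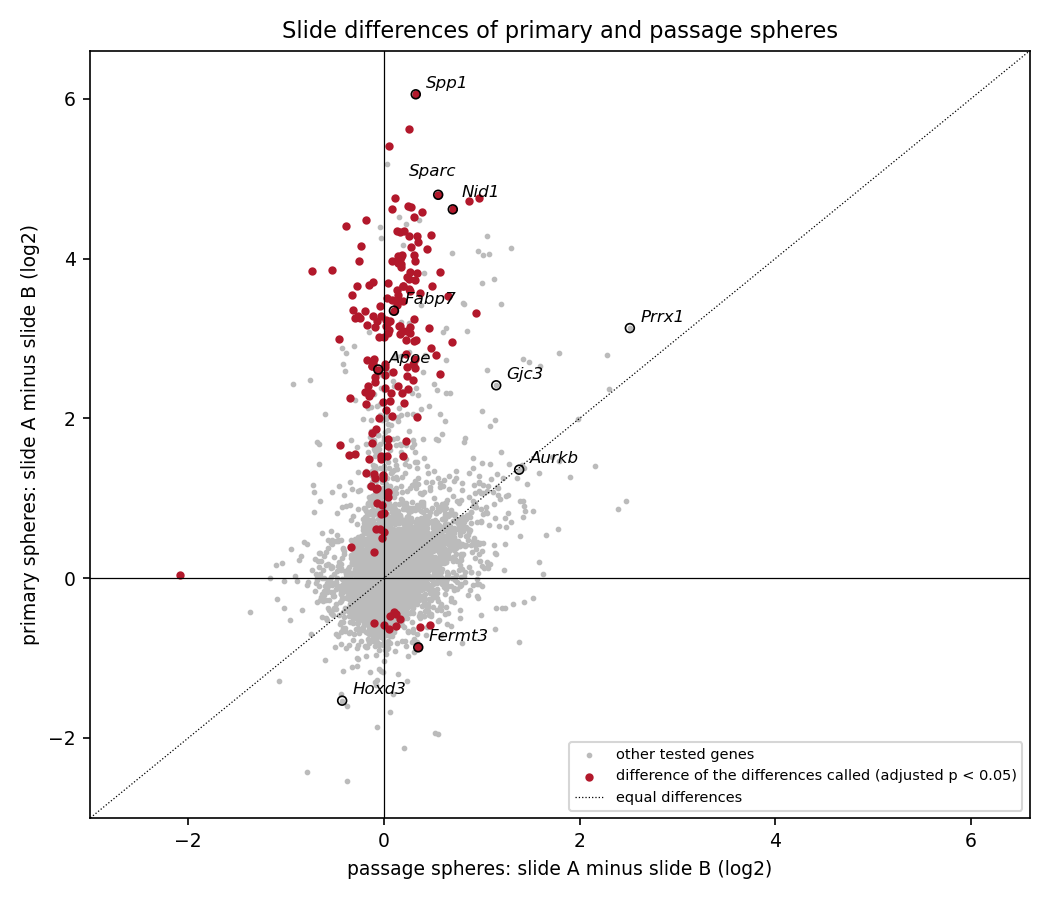
Difference between slide A and slide B (log2) in primary spheres (vertical axis) against that in passage spheres (horizontal axis), with 1 point per tested gene. Red points are genes for which the difference between stages was called, and the dotted line marks equal differences. On the passage axis Apoe lies at -0.06, Fabp7 at 0.10, Spp1 at 0.33, Sparc at 0.55 and Nid1 at 0.70, and Aurkb lies at 1.36 in primary and 1.38 in passage spheres.

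The 4 cultures of slide A were not alike. Of the 430 genes, primary culture 3 was the highest of slide A in 342 (79.5%), against 26.9% of all tested genes, and primary culture 1 was the lowest in 273 (63.5%), against 25.6% of all tested genes. The median level of the 430 genes was -2.83, -2.47, -1.92 and -2.70 in primary spheres 1 to 4, against -4.63, -4.55, -4.75 and -4.78 in primary spheres 5 to 8. The medians of the slide A cultures thus spread more widely than those of slide B; the gap between the slides follows from how the 430 were chosen. Spp1 departed from this order, with primary culture 1 the highest of slide A at 0.31. On passage arrays the median of the same genes was -4.82 on slide A and -5.14 on slide B over the group means.

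**Figure D5:**
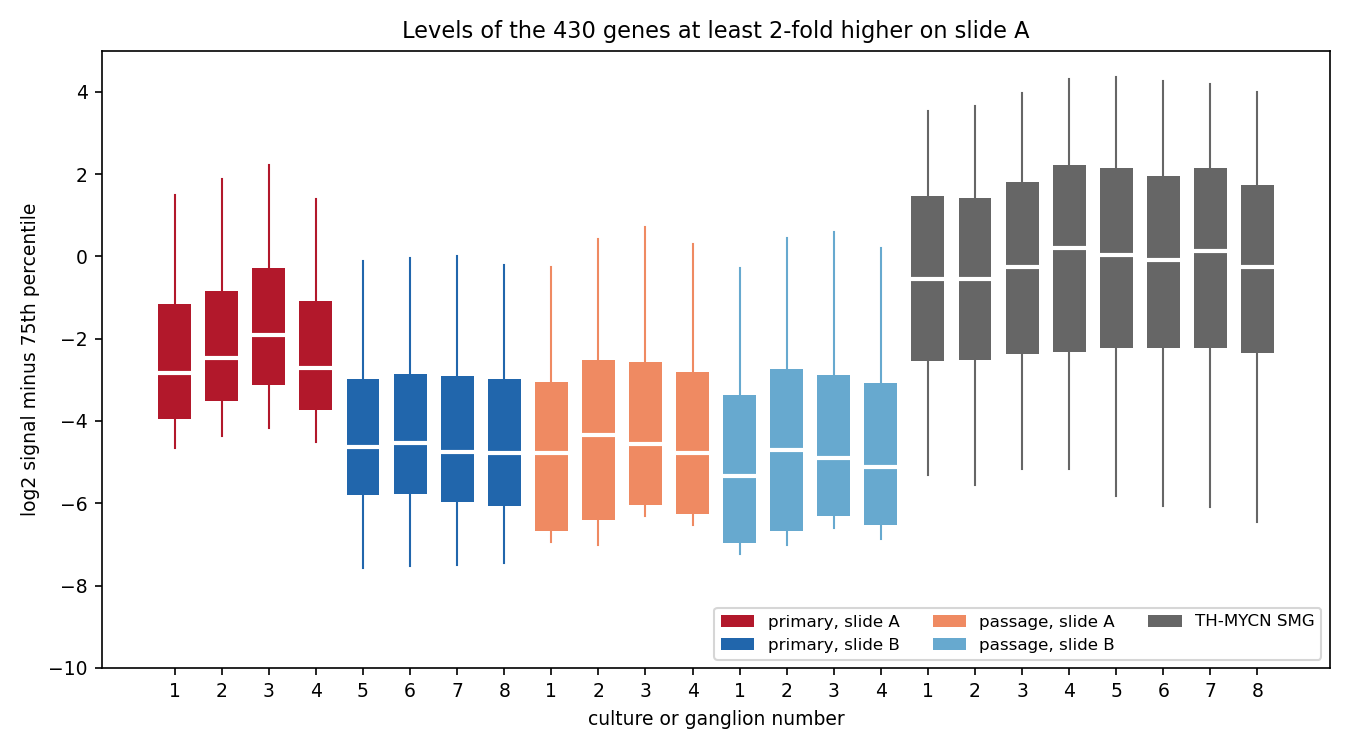
Levels (log2 signal minus the array's 75th percentile, vertical axis) of the 430 genes at least 2-fold higher in the primary spheres of slide A, for each culture or ganglion (horizontal axis). White bars are medians, boxes span the quartiles and lines the 5th to 95th percentile over genes. Primary culture 3 has the highest median of slide A at -1.92, and the 4 cultures of slide B lie at -4.78 to -4.55.

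Most genes at least 2-fold higher on slide A had higher levels still in the ganglion. The SMG mean was above the slide A mean for 329 of the 430 genes (76.5%) and above the slide B mean for 385 (89.5%), against 34.4% and 34.7% of all tested genes. The 430 were chosen for a lower level on slide B than on slide A. The share above slide B follows in part from that choice. The median level of the 430 was -2.56 in the primary spheres of slide A, -4.71 in those of slide B and -0.16 in SMG. For 101 genes the SMG level was not above that of slide A. Among the 42 named genes of this set these were 9, among them Spp1 (mean -0.18 ± 0.56 on slide A, n = 4, and -2.51 ± 0.36 in SMG, n = 8), Adamts4 (-1.88 on slide A and -5.66 in SMG), Gdnf (-2.22 on slide A and -7.19 in SMG), Aurkb, Col18a1, Egr1, Nes and Thbs2. These 9 were thus at a higher level in the slide A spheres than in the tissue, across slides and without a test. Within the primary spheres each culture lay on a single slide, so the slide and whatever else the 4 cultures of a slide shared cannot be told apart.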

How the data were processed

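Messenger RNA of primary sphere cultures (8), passage sphere cultures (4, on 2 arrays each), TH-MYCN SMG (8) and wild-type SMG (8, not analysed here beyond a shared fit) was measured on Agilent arrays for mouse genes with a single dye. The labels' protocols name an input of 40 or 200 ng without saying for which sample, so input and slide could not be compared. Per the file headers, spots were read with Agilent Feature Extraction 11.5.1.1, and the deposited processed intensity has the background of its own array subtracted and is unscaled between arrays. The log2 value table deposited by the authors equals these signals, as log2 minus the array's 75th percentile and a constant per probe, within 0.05 for 99.9% of values. Its scale and direction are thus known and the centring constant is not; its column medians were 0.02, 0.06, 0.08, 0.04, -0.08, 0.01, -0.05 and -0.07 in primary spheres 1 to 8, 0.15 to 0.51 in the passage arrays, -0.39 to -0.11 in TH-MYCN SMG and -0.48 to -0.02 in wild-type SMG.

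Of 62976 features, 59305 are not controls, for 55681 probes; 27235 were named by RefSeq accession (GRCm38.p6) for 20660 symbols. Values are log2 processed signal minus the 75th percentile of the array. A gene was tested if its probe was well above background on at least 4 of the 8 primary arrays (14135 kept, 6525 not), with the brightest kept probe standing for the gene. Tests used limma 3.58.1 in R 4.3.3 with data.table (1.17.8): lmFit and eBayes, two-sided, Benjamini-Hochberg over all tested genes, called at an adjusted p under 0.05. The passage arrays were fitted with the culture as a random block, and the interaction over all 16 sphere arrays. A bound (at least N-fold) sets the brighter mean against the lowest signal well above background, or the probe's own where higher. Array measures had exact permutation tests. The fits were tested on simulated data.

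The text names the 4 markers, genes of a neuroblastoma panel, the genes with the 12 strongest rises and the 12 strongest falls called in every fit without 1 culture (provisional symbols left out), up to 5 called members of each list, and uncalled members by value. The slides, markers and lists were chosen with earlier results of these data known. Some members of the lists and the panel are not reported here by value. Alternatives changed the background correction (normexp with offset 50 on the median spot and background signals, since the files used here hold no mean signal), the normalization, filter, probe choice, source of values, variance model, samples and blocks. Promoter windows are from the RefSeq table of GRCm38.p6, matched by symbol.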

Additional observations from a re-analysis of the deposited data

Results flagged for a closer look

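In 9 of 228 groups of 4 arrays checked (3.95%), 1 array stood apart from the other 3 beyond Dixon's 95% limit, which chance gives in about 1 in 20 groups. In primary spheres of slide A, culture 3 was the high one for Adamts4 (-1.07), Col1a2 (2.95) and Egr2 (-2.19), and culture 2 for the mean of the erythroid list (-4.28). In primary spheres of slide B, culture 5 was the high one for Afap1l2 (-6.24) and culture 7 for the mean of the endothelial list (-4.00). Culture 7 was the low one for Foxd3 (-7.63) and Uchl1 (5.55), and culture 8 for Hk2 (-1.27). The slide B values of Afap1l2 and Foxd3 were not above background.

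For 29 of the 83 named genes the slide difference differed between primary and passage spheres (interaction in limma, adjusted p under 0.05). For 28 of them it was larger in primary spheres in the direction of slide A. Over all tested genes, 1.23% were called in the direction of slide A and 0.0778% in that of slide B. Many named genes were chosen for a large primary difference, so a larger share among them follows from that choice. Sparc is among them though it named the slides, and some, such as Spp1 and Adamts4, entered the test through slide A alone. The excess was 5.73 for Spp1, 5.37 for Adamts4, 5.37 for Crym, 4.64 for Afap1l2, 4.58 for Axl, 4.54 for Emp1, 4.41 for Yap1, 4.38 for S100b, 4.37 for Thbs2 and 4.24 for Sparc. It was 4.22 for Serpinh1, 4.17 for Col5a2, 3.91 for Nid1, 3.89 for Cdh19, 3.89 for Heyl, 3.85 for Itga7, 3.80 for Abca1, 3.79 for Gdnf, 3.46 for Apod and 3.31 for Col1a2. It was 3.27 for Tap2, 3.24 for Fabp7, 3.13 for Egr2, 3.03 for Nes, 2.80 for Lats2, 2.67 for Apoe, 2.24 for Cspg4 and 0.97 for Egr1. Fermt3 went the other way at -1.22. Many of these genes, Nid1 and Fabp7 among them, were at background on all passage arrays, so that the passage term rests on dim signals there.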

How the results depend on the processing

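Over the alternatives tried, no named gene that was called changed direction in the primary comparison, while 4 of the 6 uncalled ones did: Mycn (-0.11 to 0.05), Th (-0.05 to 0.09), Alk (-0.16 to 0.05) and Mycl (-0.02 to 0.13). Of the markers, Nid1, Apoe and Fabp7 were called under each alternative, but they were chosen with earlier results of these data known. Sparc is not counted here because it named the slides. The 1820 genes called there (65.7% of them higher) became 966 with all groups in 1 fit, 992 to 1622 without 1 culture each, and 1855 with quantile normalization, where 990 were higher and 865 lower (53.4%). Of the 83 named genes, 26 lost their call with all groups in 1 fit, 11 with normexp and 10 with no filter on dim probes. Genes at least 2-fold higher numbered 430, and 160 with normexp. The 922 genes called in passage spheres (58.5% higher) became 2613 with normexp (41.4% higher), 471 with no filter, 2837 with all groups in 1 fit and 164 to 431 without 1 culture each; with the culture as a fixed replicate block 7 were called. The share higher was 41.1% with the authors' table, 51.5% with quantile normalization, 47.9% with a trended and robust variance, 46.2% where every array had to be above background and 62.7% with the mean of a gene's probes. With quantile normalization the passage difference of Cdh19 was -0.52 and that of Fabp7 was -0.50. The 185 genes whose difference differed between stages became 107 with normexp, 37 where every array had to be above background, 279 with the label number as a random replicate block and 451 with each culture as a random block, a setting chosen after the data were seen. The cause of these shifts was not tested, except that a stricter filter tests fewer genes. Primary and passage spheres share label numbers 1 to 4 only: deviations of same-numbered samples correlated at 0.26, 0.28, 0.18 and 0.07, and primary 4 correlated best with passage 1 (0.11), so the numbers were not taken as pairs. Leaving out 1 culture gave a difference in spike-in level relative to the 75th percentile of 0.29 to 0.46. Dim probes limit what can be seen: 108 of the 430 genes were above background on no slide B array.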

Other observations

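Some genes differed strongly between passage cultures and repeated on both slides, and were singled out after their values were seen. Hoxd3 was at 0.37, -6.77, -2.33 and -3.88 in passage cultures 1 to 4 on slide A, against 0.35, -5.32, -2.10 and -3.84 for the same cultures on slide B. Hoxd9 was at 0.82, -6.95, -1.83 and -2.32 on slide A, against 0.74, -6.87, -1.58 and -2.23 on slide B. Xlr4b was at -1.86, -6.99, -2.24 and -4.97 on slide A, against -1.80, -7.03, -2.68 and -5.47 on slide B. Igf1, a growth factor, ran the other way, with culture 2 the highest at -1.98 on slide A and -2.08 on slide B. In each case the order of the cultures was nearly the same on both slides, and these genes are among those that differed between the primary spheres of slide A and slide B. The sympathoadrenal factor Hand1 was likewise at 0.29, 0.53, -1.22 and -1.98 in passage cultures on slide A, against 0.37, 0.51, -1.30 and -1.96 on slide B.

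Other genes gave a signal on 1 array of a passage culture and background on the other. Foxd3 was at -2.09 in passage culture 2 on slide A, against -7.07 for the same culture on slide B, and at -6.50 in culture 4 on slide A, against -2.24 on slide B. Prrx1 was at -2.57 and -1.85 in cultures 2 and 3 on slide A, against -7.08 and -6.62 on slide B. S100b was at -6.52 in culture 2 on slide A, against -3.47 on slide B, and Gdnf at -4.15 in culture 2 on slide A, against -7.13 on slide B. These values were seen on single arrays and have no replicate.

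Xist, the RNA of the inactive X chromosome, was at 1.68 in primary sphere 2 of slide A and at 1.47, 1.76 and 1.60 in primary spheres 6, 7 and 8 of slide B, and between -7.64 and -7.35 in the other 4. The Y-linked Eif2s3y was at 2.69, 2.55 and 2.64 in primary spheres 1, 3 and 4 of slide A and at 2.63 in primary sphere 5 of slide B, and below -7 in the other 4. The 2 sets of values are complementary over the 8 cultures, with 3 against 1 on slide A and 1 against 3 on slide B. Their part in the slide difference was not tested; no comparison was made by them.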
